A study of Homo sapiens with 8 samples.

Results

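The RCC1 repeat family was examined after silencing of IER5L in PC3, an established line of human prostate cancer cells. The family was taken as 10 genes chosen by name, RCC1, RCC2, RCC1L, RCBTB1, RCBTB2, SERGEF, NEK8, NEK9, HERC1 and HERC2, out of 58051 genes in the table. All 10 had enough counts to be tested, among 16959 genes tested in all. The question was whether the lower RCC2 mRNA of IER5L-silenced cells came with a like change in the genes built from the same repeat.

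PC3 cells were transduced with lentiviral vectors carrying a non-targeting hairpin (shScramble) or the sh2 hairpin against IER5L (shIER5L), and both were selected with puromycin. RNA-seq covered 8 samples, 4 biological replicates per hairpin, and 4 plates per condition were seeded for it. Whether the plates came from separate transductions is not given in the sources used here, so p-values measure the spread between these samples, which may be technical. A single hairpin was sequenced, so IER5L silencing and any other effect of that hairpin cannot be told apart.

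The RCC1 repeat is a protein module that folds into the blades of a propeller. RCC1, which gave the repeat its name, sits on chromatin and loads GTP onto the small GTPase Ran, which sets the direction of nuclear transport and helps build the mitotic spindle. Its relatives use the same fold in other places. RCC2, also called TD-60, is found at centromeres in mitosis and acts on small GTPases of the Rac, Arf and Ral kinds. RCC1L works in mitochondria on the ribosome there. RCBTB1 and RCBTB2 join the repeat to a BTB domain, as do many adaptors of ubiquitin ligases, and SERGEF is tied to secretion. NEK8 and NEK9 are kinases of cilia and of mitosis, respectively, and HERC1 and HERC2 are giant ubiquitin ligases that carry several blocks of the repeat.

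The 8 libraries held 21512128 to 24662190 counts each. Levels are given as CPM (counts relative to the TMM-scaled size of each library), and within a condition log2 CPM correlated across genes with r of 0.988 to 0.992. The epithelial markers KRT8, KRT18 and EPCAM were present in every sample (KRT8 at 40.3 to 63.1 CPM), as were VIM and CD44. KLK3, a marker of secretory prostate epithelium that PC3 is known to lack, had 0 counts in every sample. The leukocyte marker PTPRC had at most 4 counts and the fibroblast marker COL1A1 at most 14, while the endothelial marker PECAM1 had 7.24 to 10.4 CPM. As these are bulk samples, fewer cells with a transcript and less of it per cell cannot be told apart.

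The targeted gene, IER5L, had 3.91, 6.51, 5.62 and 3.23 CPM in shScramble samples 1 to 4 and 2.73, 3.02, 2.04 and 1.32 CPM in shIER5L samples 1 to 4. The conditions did not overlap, with shScramble sample 4 the closest to the silenced cells. IER5L shares 39.2% of its counted length with genes on the opposite strand, and reads in shared bases were credited to neither gene. Its log2 fold change was -1.08 with a standard error (SE) of 0.248 and an adjusted p of 0.0212 by edgeR's quasi-likelihood test. Leaving out 1 sample took the call away in 3 of 8 fits, with an edgeR adjusted p of 0.0937 without shScramble sample 2, 0.0891 without shIER5L sample 3 and 0.078 without shScramble sample 3.

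The sh2 hairpin is shown first, because RCC2 and NEK9 are described further on by the letters they share with it. It is written as listed, in the sense of the IER5L mRNA and 21 bases long, with positions 11 to 18 from its 5′ end in capitals. Those letters hold a pair of overlapping heptamers, ACATCTC (positions 11 to 17) and CATCTCA (positions 12 to 18), and they share the hexamer CATCTC (positions 12 to 17). The heptamers were named in an earlier look at the same samples, so matches to them support nothing on their own.
sh2 IER5L: gacgcgtccaACATCTCAaac

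RCC2 mRNA fell to 45.2% of its shScramble mean, and none of the other 9 members passed the test. The RCC2 gene (ENSG00000179051, hg38 chr1:17406760-17439724, minus strand) has 13 annotated exon blocks. Its raw counts were 4305, 5073, 5190 and 4819 in shScramble samples 1 to 4 and 2293, 2418, 2101 and 1974 in shIER5L samples 1 to 4. The lowest shScramble sample thus stood well above the highest shIER5L sample, and the samples of a condition lay close together. After scaling, RCC2 was at 210.4 ± 5.99 CPM (SD, n = 4) in shScramble and 95.1 ± 7.34 CPM in shIER5L. The log2 fold change was -1.15 (SE 0.0542, 95% interval -1.26 to -1.03) with an adjusted p of 9.52e-09 by edgeR's quasi-likelihood test. By p it ranked 1 of 16959 genes, and by the size of the fall it ranked 23 from the most negative, or 3 among the 9098 genes with a mean of at least 10 CPM. The fall of RCC2 was known from earlier work on these samples and was the reason to look at its family, so these values are the base for the comparisons that follow and not independent support for them.

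**Figure D1:**
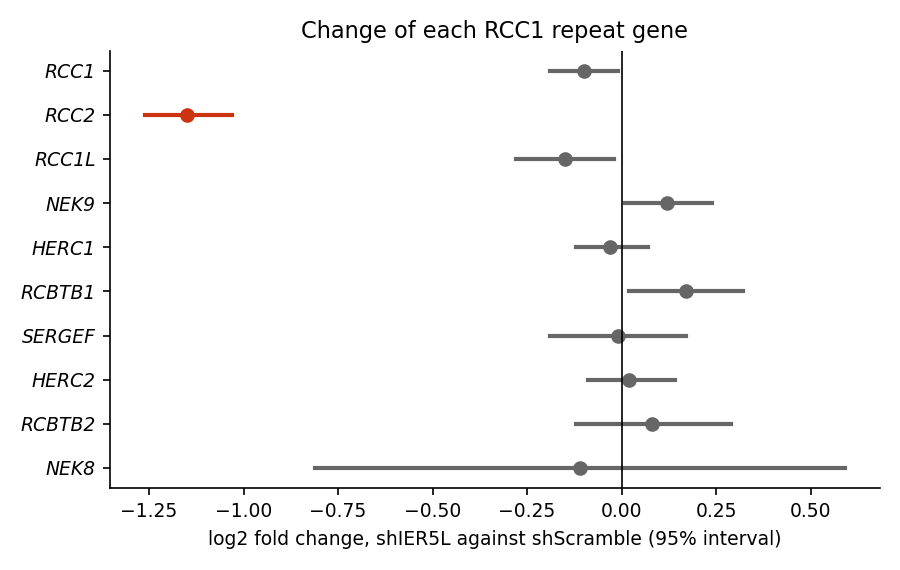
Log2 fold change of each RCC1 repeat gene between shIER5L and shScramble (x axis, point) with its 95% interval (line). RCC2 stands alone at -1.15, the other 9 genes lie between -0.15 and 0.17, and the interval of NEK8 is the widest because it had 9 to 17 counts per sample.

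Of the 10 members, 1 passed an adjusted p under 0.05, against 3.93% of all genes tested in either direction and 1.46% lower. That gene, RCC2, was also the 1 member to count as a differentially expressed gene (DEG), which needs a log2 fold change of 0.5 or more in size besides, against 0.79% of all genes tested in either direction and 0.366% lower. The conditions did not overlap in 1 member, RCC2 again, against 10.9% of all genes tested in either direction and 4.61% lower. The other 9 members comprised 5 with a lower mean log2 fold change and 4 with a higher one, with a median of -0.0082, beside a median of 0.0021 over all genes tested. Their smallest adjusted p was 0.234 by edgeR, and DESeq2, limma voom and edgeR's likelihood ratio test also called 0 of the 9, although DESeq2 gave no adjusted p for NEK8. At an unadjusted p under 0.05 there were 4 of the 9 (RCC1L, RCBTB1, NEK9 and RCC1), against 16.5% of all genes tested, 2 of them lower and 2 higher. Leaving NEK8 aside, the 95% intervals of the others reached from -0.28 to 0.32, so that no fall of the size seen for RCC2 lay within any of them.

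**Figure D2:**
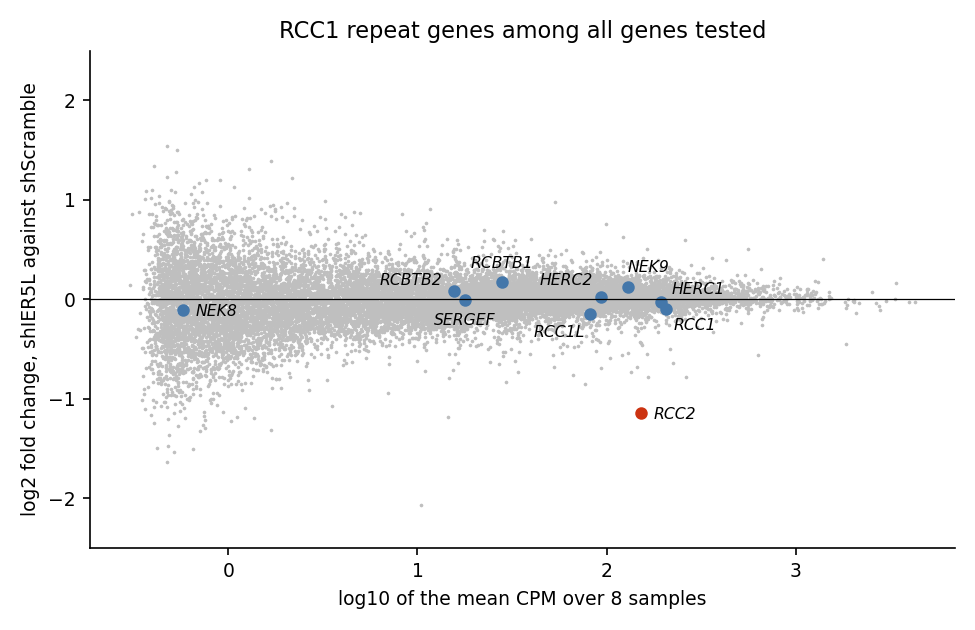
Log2 fold change (y axis) against the log10 of the mean CPM over the 8 samples (x axis) for all 16959 genes tested (grey) with the 10 members marked and named. RCC2 lies at the lower edge of the genes of its level, and the other members lie within the bulk of all genes.

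RCC1, the nucleotide exchange factor of Ran, was measured as deeply as RCC2. RCC1 (ENSG00000180198, hg38 chr1:28505943-28539300, plus strand) had 215, 202, 219.7 and 209.5 CPM in shScramble samples 1 to 4 and 203, 194, 199 and 195 CPM in shIER5L samples 1 to 4. The silenced samples were lower on the whole, but shIER5L sample 1 was above shScramble sample 2, so the conditions overlapped. The log2 fold change was -0.10 (SE 0.042, 95% interval -0.19 to -0.01, edgeR adjusted p = 0.255). RCC1 shares 242 of its exon bases, 6.22% of the length counted, with SNHG3, a small nucleolar RNA host gene on the same strand. Reads in the shared bases were credited to neither gene. SNHG3 itself went from 89.4 ± 6.59 to 73.7 ± 2.27 CPM (SD, n = 4), a log2 fold change of -0.28 with an adjusted p of 0.0117 by edgeR. Any relation between the SNHG3 and RCC1 values was not tested.

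RCC1L, the mitochondrial member, had 83.8, 81.3, 93.4 and 82.8 CPM in shScramble samples 1 to 4 and 81.8, 81.5, 71.6 and 73.3 CPM in shIER5L samples 1 to 4. Only shIER5L samples 3 and 4 were below all of the shScramble samples, and the conditions overlapped. Its log2 fold change of -0.15 (SE 0.0615, 95% interval -0.28 to -0.02) was the lowest of the 9 and had an edgeR adjusted p of 0.234. RCC1L (ENSG00000274523, hg38 chr7:75027122-75074228, minus strand) shares no exon bases with another annotated gene.

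The BTB-domain pair lies on chromosome 13, RCBTB1 (ENSG00000136144) at hg38 chr13:49531946-49585583 and RCBTB2 (ENSG00000136161) at chr13:48488959-48533256, both on the minus strand. RCBTB1 had 24.8, 26, 26.4 and 28.3 CPM in shScramble samples 1 to 4 and 29.5, 27.4, 31.1 and 30.7 CPM in shIER5L samples 1 to 4. Of the silenced samples, 3 were above every shScramble sample and sample 2 was not. The log2 fold change of 0.17 (SE 0.0717, 95% interval 0.02 to 0.32) was the highest among the members, with an edgeR adjusted p of 0.239. RCBTB2 ranged from 14.3 to 16.1 CPM in shScramble and from 14.6 to 18.8 CPM in shIER5L, with a log2 fold change of 0.08 (95% interval -0.12 to 0.29).

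SERGEF (ENSG00000129158, hg38 chr11:17788048-18013162, minus strand), the member tied to secretion, was at 17.9 ± 0.975 CPM in shScramble and 17.8 ± 1.43 CPM in shIER5L (SD, n = 4). Its log2 fold change was -0.01 with a 95% interval of -0.19 to 0.17. It shares 403 exon bases, 11.5% of the length counted, with another annotated gene on the same strand, which had 0 counts in every sample. Reads in shared bases were credited to neither gene, so these 0 counts do not show that the other gene was silent.

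Among the kinases, NEK9 (ENSG00000119638, hg38 chr14:75079353-75127344, minus strand), which acts at the spindle poles ahead of NEK6 and NEK7, had 126, 119, 122 and 129.7 CPM in shScramble samples 1 to 4 and 137, 139, 142 and 122 CPM in shIER5L samples 1 to 4. Silenced samples 1 to 3 were above all shScramble samples, while sample 4 fell within them. The log2 fold change was 0.12 (SE 0.0528, 95% interval 0.01 to 0.24, edgeR adjusted p = 0.24). NEK8 (ENSG00000160602, hg38 chr17:28725897-28743455, plus strand), a kinase of the base of cilia, had 14, 13, 16 and 12 raw counts in shScramble samples 1 to 4 and 9, 13, 12 and 17 in shIER5L samples 1 to 4. At that depth its 95% interval ran from -0.81 to 0.59 around a log2 fold change of -0.11, so a change anywhere in that range remained possible. NEK8 also shares 18.8% of its counted length with 2 genes on the opposite strand. Of these, TLCD1 shares 100 bases and had 85 to 133 counts per sample. The other shares 729 bases and had 0 counts in every sample. Reads in shared bases were credited to neither gene, so these 0 counts do not show that it was silent.

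The giant ubiquitin ligases both lie on the minus strand of chromosome 15, HERC1 (ENSG00000103657) at hg38 chr15:63608618-63833942 with 82 exon blocks and HERC2 (ENSG00000128731) at chr15:28111040-28322152 with 93. HERC1 was at 195 ± 4.53 CPM in shScramble and 192 ± 8.04 CPM in shIER5L (SD, n = 4), a log2 fold change of -0.03 with a 95% interval of -0.12 to 0.07. HERC2, which works in the response to DNA breaks, was at 92.5 ± 3.82 and 94 ± 5.76 CPM, a log2 fold change of 0.02 with a 95% interval of -0.09 to 0.14. HERC2 has 11 annotated pseudogene copies, and 8 of them had counts, which summed to 2131 to 2769 per shScramble sample and 2079 to 2605 per shIER5L sample, so the share of reads that belongs to HERC2 is uncertain. The most abundant copy, HERC2P2, had a log2 fold change of -0.12 (edgeR adjusted p = 0.548). RCC2 has 8 annotated pseudogene copies, but these summed to only 5 to 12 counts in shScramble and 4 to 11 in shIER5L samples, against 1974 or more for RCC2 itself. The RCC2 exons overlap an antisense gene, RCC2-AS1, over 311 bases, and RCC2-AS1 had 0 counts in every sample. Counting ignored strand and credited reads in shared bases to neither gene, so these 0 counts do not show that RCC2-AS1 was silent.

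**Figure D3:**
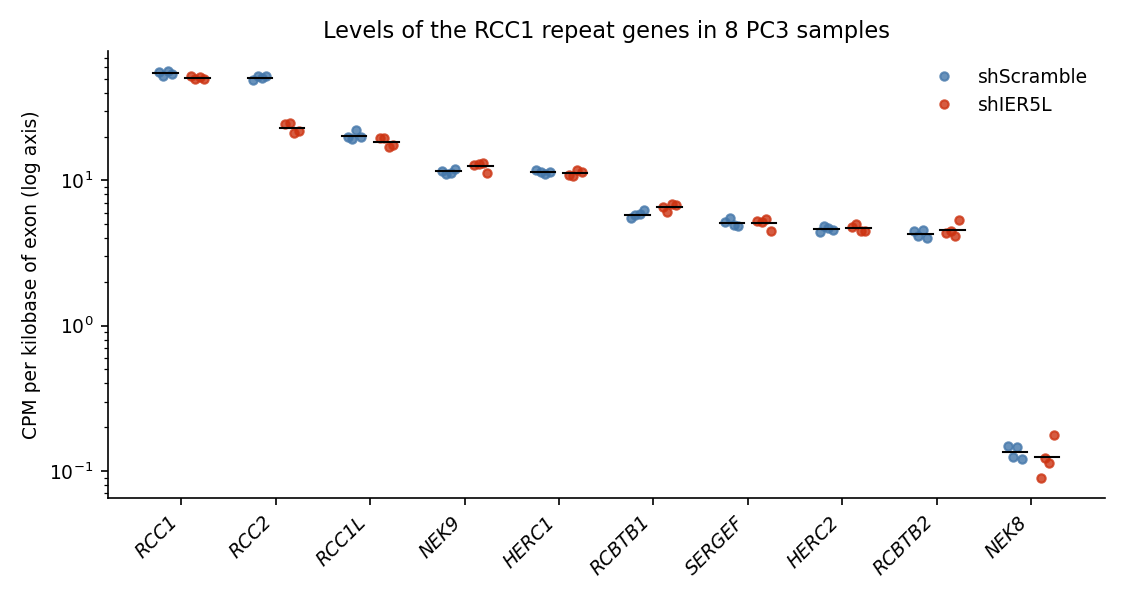
CPM per kilobase of exon on a log axis for each member in the 4 shScramble and 4 shIER5L samples (points), in order of the shScramble mean. RCC1 and RCC2 are at a like level in shScramble, and RCC2 is the member whose points separate by condition.

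Levels of different genes were compared per length, as CPM per kilobase of exon. In shScramble, RCC1 at 54.4 ± 1.99 and RCC2 at 51 ± 1.45 CPM per kilobase (SD, n = 4) were the most abundant members and their ranges overlapped. RCC1L followed at 20.3 ± 1.3, then NEK9 at 11.5 ± 0.457 and HERC1 at 11.4 ± 0.266 CPM per kilobase, whose ranges overlapped. RCBTB1 at 5.82 ± 0.314 overlapped SERGEF at 5.12 ± 0.278, HERC2 at 4.62 ± 0.191 overlapped RCBTB2 at 4.29 ± 0.256, and NEK8 was last at 0.135 ± 0.0142 CPM per kilobase. In shIER5L the order of the means was the same, but RCC2 at 23 ± 1.78 CPM per kilobase had left RCC1 at 50.9 ± 1.09 and stood next to RCC1L at 18.4 ± 1.28, still without overlap. Of the summed level of the family per kilobase, RCC2 held 30.2 ± 1.02% in shScramble and 16.8 ± 0.98% in shIER5L. The sum of the other 9 was 118 ± 3.01 and 114 ± 1.93 CPM per kilobase.

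The fall of RCC2 was then set against each relative within the same sample, as the log2 ratio of their CPM per kilobase, which does not depend on library scaling. Against RCC1, the ratio was -0.17, 0.00, -0.16 and -0.04 in shScramble samples 1 to 4 and -1.09, -1.01, -1.27 and -1.20 in shIER5L samples 1 to 4. All shScramble samples thus held nearly as much RCC2 as RCC1 per kilobase, and no silenced sample did. The difference was -1.05 (SE 0.072). Against RCC1L, the log2 ratio was 1.30, 1.42, 1.18 and 1.41 in shScramble samples and 0.33, 0.34, 0.31 and 0.32 in shIER5L samples, a difference of -1.0 (SE 0.0562), which was the smallest of the 9. The largest was against RCBTB1, at -1.32 (SE 0.0966). The median over the 9 members was -1.14, and in 9 of 9 the conditions did not overlap. Each of the 9 comparisons had p = 0.0286 in an exact two-sided permutation test of 4 against 4 samples, the smallest this design allows, and p = 0.0286 after Benjamini-Hochberg adjustment over the 9. They share the RCC2 values, whose fall was known beforehand, and so are not 9 separate results. With RCC2 known to separate and the other 9 changing little, such a p was largely fixed beforehand. It adds no support beyond the fold changes themselves.

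**Figure D4:**
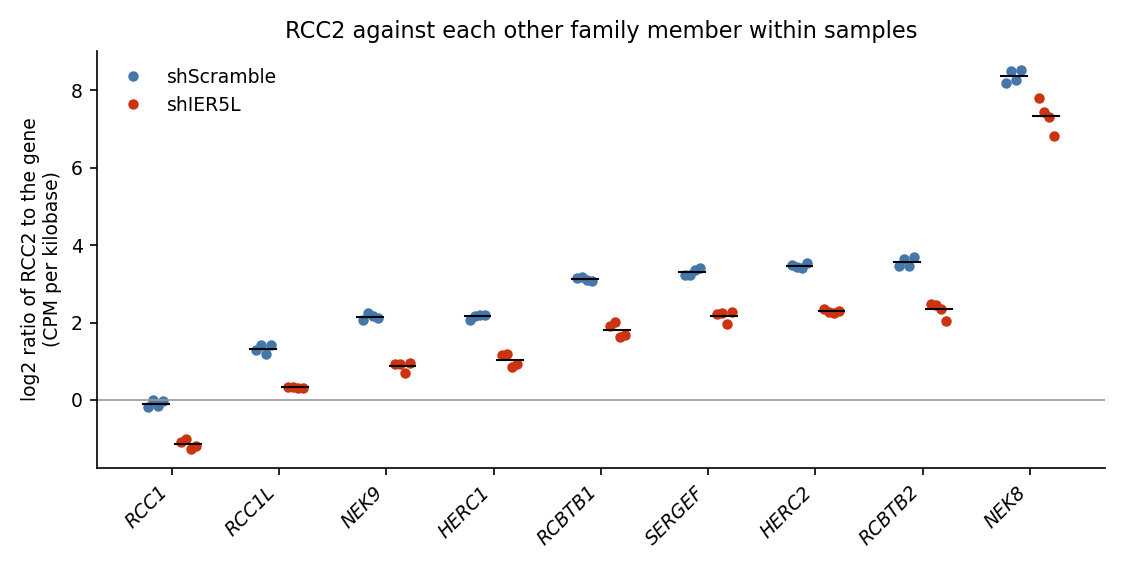
Log2 ratio of RCC2 to each other member within each sample (y axis, CPM per kilobase), with 4 shScramble and 4 shIER5L samples per gene. For all 9 genes the shIER5L points lie below the shScramble points, with a difference of -1.0 for RCC1L and -1.32 for RCBTB1.

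The transcripts of the members were searched for the hairpin letters on the transcript strand, in protein-coding transcripts of GENCODE v44 on hg38. The hexamer CATCTC occurred in an annotated 3′ UTR of RCC2, NEK8 and NEK9, and in none of the other 7 members. In 12701 tested genes with a 3′ UTR of at least 30 bases, it was found in 44.7%, and one or both heptamers in 26.2%. RCC2 held 3 copies of the hexamer, none extended to a heptamer, and each annotated in only 1 of its 2 coding transcripts with such a 3′ UTR. They are printed because RCC2 is the member that fell, with the hexamer in capitals and 10 bases on either side, read along the minus strand.
RCC2 chr1:17407391-17407396: ccaaaaccacCATCTCtgacgtaagc
RCC2 chr1:17407493-17407498: acgccacgcgCATCTCttgttctgtg
RCC2 chr1:17407525-17407530: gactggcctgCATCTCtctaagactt

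NEK9, whose longest annotated 3′ UTR of 5211 bases was the longest among the members, was the only member with a heptamer. It held 1 copy of ACATCTC and 2 of CATCTCA. NEK9 has 5 annotated coding transcripts with such a 3′ UTR. The ACATCTC copy and 1 CATCTCA copy were each in only 1 transcript, and the other CATCTCA copy, printed below, was in 4. Any part of these letters in the level of a member was not tested. A pair of these sites, 1 per heptamer, is printed because no other member holds one, with the heptamer in capitals, read along the minus strand.
NEK9 chr14:75081354-75081360: ccactatgtcACATCTCtgttaccacc
NEK9 chr14:75082738-75082744: tcatgctcatCATCTCAgcaggcctga

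The longest run of letters that any annotated transcript of RCC2 shares with the 21 bases of the hairpin was 6, the shortest among the members, beside 9 in NEK9, 8 in HERC1 and HERC2, and 21 in IER5L. Runs of at least 6 bases occur in 96.5% of 16817 tested genes, of at least 8 in 50.3% and of at least 9 in 19.5%. A match in letters is a description of sequence and not a site of binding.

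The other genes known to carry RCC1 repeats were taken as a second list of 9, among them RPGR, HERC3, HERC4, HERC5, HERC6, RCCD1, IBTK and MYCBP2. Of these, 2 were called higher and 0 lower, with a median log2 fold change of 0.0274, beside 0.0021 for all genes tested and 2.46% of all genes called higher. DESeq2 and limma voom called 2 as well. HERC4, a ubiquitin ligase of the small HERC group, had 327, 308, 289 and 307 CPM in shScramble and 337, 344, 369 and 387 CPM in shIER5L samples 1 to 4. All silenced samples were above all shScramble samples, and the log2 fold change was 0.22 (SE 0.0508, edgeR adjusted p = 0.0205). HERC3, of the same group, rose from 9.73 ± 0.698 to 12.5 ± 0.204 CPM (SD, n = 4), a log2 fold change of 0.36 (SE 0.092, edgeR adjusted p = 0.0373). Leaving out 1 sample took the HERC4 call away in 5 of 8 edgeR fits, without shScramble samples 2, 3 or 4 (adjusted p 0.0663, 0.0883 and 0.0612) or shIER5L samples 3 or 4 (0.0851 and 0.0579). For HERC3 the call held in 1 of 8 such edgeR fits, without shScramble sample 1, and elsewhere the adjusted p ran from 0.0548 without shIER5L sample 2 to 0.12 without shScramble sample 3. With no filter on low counts HERC3 also lost its call (edgeR adjusted p = 0.0918). IBTK, named for binding a tyrosine kinase of B cells, did not overlap between conditions and had a log2 fold change of 0.15 (edgeR adjusted p = 0.0792). Of the others, HERC5 was at -0.03, HERC6 at 0.01, MYCBP2 at 0.03 and RPGR, the gene of an X-linked retinal degeneration, at 0.08, all on the log2 scale. RCCD1 was at -0.31 with a wide 95% interval of -0.63 to 0.02.

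Genes known to act with the members were counted in the same fit. In the Ran cycle and nuclear transport, 0 of 15 genes were called by edgeR, DESeq2 or limma voom. As edgeR called 3.93% of all genes tested, 0 of 15 is near that share. At an unadjusted p under 0.05 there were 2 (IPO5 and IPO7, nuclear import receptors), against 16.5% of all genes tested. The log2 fold changes ran from -0.12 to 0.14 with a median of 0.0073. RAN itself went from 1891 ± 90.2 to 1901 ± 81 CPM (SD, n = 4), and RANGAP1, which switches Ran off, had a log2 fold change of 0.02 (95% interval -0.11 to 0.14). Of 10 genes known to act with RCC2, covering the chromosomal passenger complex, small GTPases and cortical actin, 1 was called higher and 0 lower, against 2.46% and 1.46% of all genes tested, and the median was 0.0163. That gene was RALA, a Ral GTPase on which RCC2 is known to act, with 27.7, 26.5, 27.2 and 29.7 CPM in shScramble and 33.1, 33.4, 36.7 and 36.3 CPM in shIER5L samples 1 to 4. The conditions did not overlap, and the log2 fold change was 0.33 (SE 0.0686, edgeR adjusted p = 0.0123). Leaving out 1 sample took the call away in 3 of 8 edgeR fits, with an adjusted p of 0.055 without shScramble sample 2, 0.0525 without shScramble sample 3 and 0.053 without shIER5L sample 3.

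Of 9 genes that act with NEK9 and NEK8, 1 was called lower and 0 higher, against 1.46% and 2.46% of all genes tested, and the median log2 fold change was -0.0244. TUBG1, the gamma-tubulin that seeds microtubules at the centrosome, had 114, 126, 138 and 126 CPM in shScramble and 109.9, 112, 94.3 and 94.9 CPM in shIER5L samples 1 to 4. The gap between the conditions was narrow, between shScramble sample 1 and shIER5L sample 2. The log2 fold change was -0.29 (SE 0.0677, edgeR adjusted p = 0.0217), and the call was lost in 4 of 8 edgeR fits without 1 sample, those without shScramble samples 2, 3 or 4 (adjusted p 0.0665, 0.094 and 0.0597) and without shIER5L sample 3 (0.0843). Of 8 genes that act with HERC2 none was called by edgeR, DESeq2 or limma voom, which is near the 3.93% of all genes that edgeR called. At an unadjusted p under 0.05 there were 2, against 16.5% of all genes tested, and the median was 0.0102. Of the 5 genes of the RCC1L module of the mitochondrial ribosome none was called by these tools, against 3.93% of all genes tested by edgeR. At an unadjusted p under 0.05 there were 0, against 16.5% of all genes tested. With so few genes, counts of 0 are near those shares. Their log2 fold changes ran from -0.06 to 0.07. Over the 56 genes of all lists, 3 were called higher and 1 lower, against 2.46% and 1.46% of all genes tested, and the median was 0.0096.

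**Figure D5:**
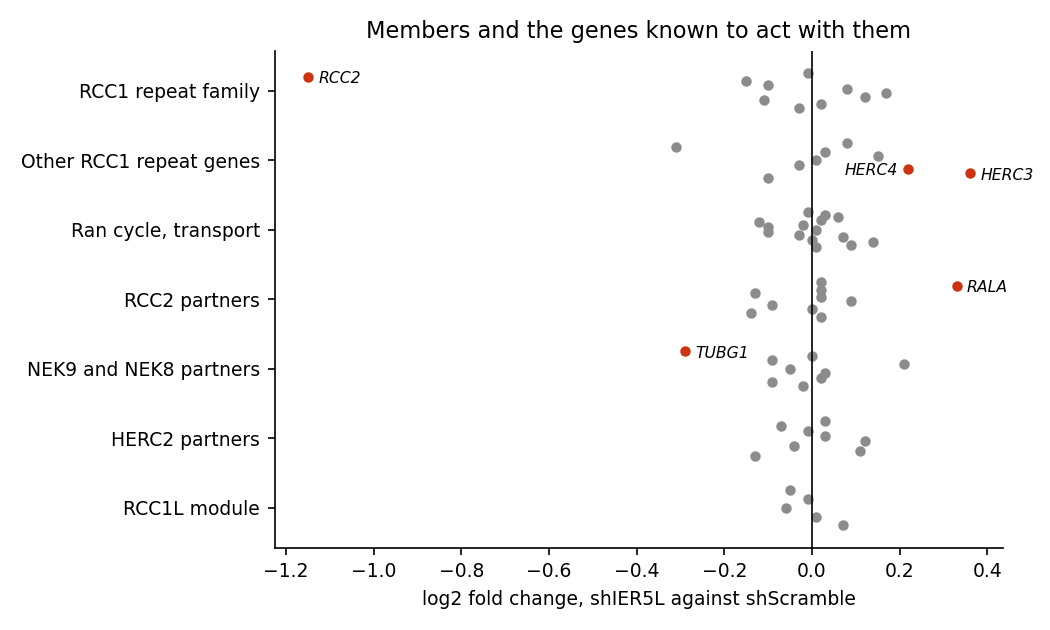
Log2 fold change (x axis) of each member and of each gene in the 6 lists of other RCC1 repeat genes and known partners (points, 1 row per list), with the called genes named. RCC2 at -1.15 lies outside the range of the 56 listed genes, which is -0.31 to 0.36.

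The genes with the profile most like that of RCC2 were sought among all genes with a mean of at least 10 CPM, by the Euclidean distance over the 8 samples of log2 CPM centred on the shScramble mean. None of the 4 nearest was a family member, which follows from the small log2 fold changes of the other members and is no separate result. The nearest was CENPM, a protein of the inner kinetochore, at a distance of 0.298. CENPM went from 20.2 ± 1.46 to 8.93 ± 1.31 CPM (SD, n = 4), a log2 fold change of -1.18 (SE 0.108). It was followed by PLAT, the tissue plasminogen activator, at 0.652 (log2 fold change -0.85), and by JPT1 (-0.78) and INHBB, a subunit of activins and inhibins (-0.83), both at 0.758. The likeness was used to choose these genes, and their falls are descriptions without a test.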

How the data were processed

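RNA-seq was analysed in 4 shScramble and 4 shIER5L PC3 samples, grouped by the sample records. The authors deposited 1 table of raw counts per Ensembl gene, without normalization. Per the submitters' processing notes, the tools were STAR 2.7.5c, SAMtools 1.15 and featureCounts 2.0.3 on hg38. The study removed PCR duplicates before counting. The command in the table counts exon reads without a strand option, takes the mates of a pair singly, and has no option to assign a read to several genes. For the libraries, a ribosomal RNA depletion kit is named in the study's methods and a poly(A) kit in the sample records.

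Genes kept by filterByExpr (16959) were scaled by TMM and compared with the quasi-likelihood test of edgeR 4.0.16 in R 4.3.3, with a term for condition alone and p-values adjusted after Benjamini and Hochberg. SEs were taken from the log2 fold change and its F statistic, and 95% intervals from the SE. Symbols and 3′ UTRs came from GENCODE v44, and the hairpin from the study's table of hairpins. Gene coordinates, exon blocks and exon overlaps came from the annotation columns deposited with the counts. Within-sample ratios were tested by exact permutation with scipy 1.17.1. The steps were checked on simulated counts. The genes named are the members, IER5L, the other RCC1 repeat genes (1 of which is not reported here), called genes of the lists, and the 4 profiles nearest to RCC2. RAN, RANGAP1, IPO5, IPO7, SNHG3, TLCD1, RCC2-AS1 and HERC2P2 were added after their values were seen. The members and lists were chosen with earlier results of these data known.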

Additional observations from a re-analysis of the deposited data

How the results depend on the processing

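The fit was repeated with RLE, upper quartile and total count scaling, with no filter and with a mean of at least 1 CPM, with DESeq2 1.42.0, voom of limma 3.58.1 and the likelihood ratio test, with a replicate block, and without each sample in turn. RCC2 was called in all of these, with a log2 fold change of -1.16 to -1.15, or -1.18 to -1.11 without 1 sample, and an adjusted p of at most 1.79e-07. The members called numbered 1 throughout, also as DEGs, and the smallest adjusted p of another member was 0.0793, for NEK9. NEK8 had no value under the 1 CPM filter and no adjusted p in DESeq2. The small log2 fold changes of SERGEF, NEK8 and HERC2 changed sign when some samples were left out. The median difference between RCC2 and the other members was -1.14 with a prior count of 0 or 4, the latter chosen after seeing the data, and -1.18 to -1.07 without 1 sample, where the smallest exact permutation p possible was 0.0571.

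Counts over all genes depended more on single samples. Against 666 genes called, leaving out 1 sample gave 305 to 756, with 305 without shScramble sample 3, 341 without shScramble sample 2, 358 without shIER5L sample 3 and 434 without shScramble sample 4, and the other settings gave 641 to 947. Against 134 DEGs, leaving out 1 sample gave 86 to 135, the lowest without shScramble sample 3, and the other settings 129 to 193. The count column of shScramble sample 3 carries another control number than the other shScramble columns, and the labels do not give its meaning. Against 4 called among the 56 listed partner and repeat genes, leaving out 1 sample gave 0 to 5, with 0 without shScramble sample 2 or 3 or shIER5L sample 3, 1 without shScramble sample 4 and 2 without shIER5L sample 4.

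Deviations of same-numbered samples correlated weakly across genes (r of -0.048, 0.098, -0.041 and 0.144), beside -0.159 to 0.108 for samples of unlike number. These values cannot settle whether the numbers pair the samples, and the labels do not say. A replicate block gave 655 genes called and 137 DEGs, 592 of the called genes shared with the fit without it, and 1 member called. Of the 4 listed genes called it kept 3, with HERC3 at an edgeR adjusted p of 0.0624. Subtracting same-numbered samples left the median difference at -1.14, where the smallest exact sign-flip p of 4 pairs is 0.125.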
